A study of Mus musculus with 8 samples.

Results

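The 10 genes described here, Csf1r, C1qa, C1qb, C1qc, Mrc1, Lyz2, Cx3cr1, Adgre1, Aif1 and Fcer1g, are genes of macrophages and related myeloid cells. They were chosen by name, and every probe set that the array annotation assigns to 1 of them alone was taken, 15 of the 45037 probe sets tested and 10 of 18193 genes. The microarrays held mouse gonad RNA from embryonic day 13, in 4 groups of 2 arrays. Sertoli cells were EGFP-positive cells sorted from XY gonads, about 22000 per sample, and pre-granulosa cells were EGFP-positive cells sorted from XX gonads, about 30000 per sample. Testis and ovary samples were whole organs, with 4 gonads pooled in each. All samples carried the strain label C57BL6/J-Tg92. The EGFP transgene of this line is known, as background, to be driven by regulatory sequence of Sry, so the sort selects cells in which that sequence is active and does not select macrophages. The labels call the RNA samples separate but name no litters or animals, so each p-value reflects the spread between the samples measured, which may be technical. In such bulk RNA, fewer macrophages and less RNA per macrophage cannot be told apart.

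Macrophages of the fetal gonad are resident phagocytes that arise from the yolk sac and other embryonic sources, and in the fetal testis they are known to clear cells and to take part in vessel growth. Their survival depends on CSF1R, the receptor for the cytokines CSF1 and IL34. C1QA, C1QB and C1QC are the 3 chains of C1q, the molecule that starts the classical complement pathway, and tissue macrophages are its main source. MRC1 is the mannose receptor, LYZ2 is the myeloid lysozyme, and CX3CR1 is the receptor for the chemokine CX3CL1. ADGRE1 is a surface antigen widely used to stain macrophages, AIF1 is the actin-binding protein IBA1, and FCER1G is the signalling chain shared by several Fc receptors.

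Promoter sequences of the C1qb, C1qc and Mrc1 genes are shown because C1qb and Mrc1 gave the largest called differences below and C1qc is the chromosome neighbour of C1qb. Each runs 5′ to 3′ from 250 bases before to 50 bases after the gene's start in RefSeq, build GRCm38.p6, and capitals mark GAGGAA or its opposite strand TTCCTC, a core bound by PU.1, the transcription factor of the myeloid lineage. The C1qb sequence is chr4:136886151-136886450, minus strand, the C1qc sequence chr4:136892865-136893164, minus strand, and the Mrc1 sequence chr2:14229164-14229463, plus strand.
C1qb: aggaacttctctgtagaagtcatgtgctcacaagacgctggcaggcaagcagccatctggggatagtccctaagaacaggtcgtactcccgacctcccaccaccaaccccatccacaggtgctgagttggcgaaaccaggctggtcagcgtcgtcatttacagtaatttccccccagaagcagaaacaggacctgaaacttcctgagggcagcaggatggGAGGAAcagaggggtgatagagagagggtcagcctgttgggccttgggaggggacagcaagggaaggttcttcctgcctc
C1qc: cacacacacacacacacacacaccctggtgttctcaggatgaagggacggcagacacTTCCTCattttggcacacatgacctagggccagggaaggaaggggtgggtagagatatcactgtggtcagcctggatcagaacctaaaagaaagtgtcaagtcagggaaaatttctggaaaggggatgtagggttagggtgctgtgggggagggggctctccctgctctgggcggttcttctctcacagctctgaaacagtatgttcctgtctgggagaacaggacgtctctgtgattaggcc
Mrc1: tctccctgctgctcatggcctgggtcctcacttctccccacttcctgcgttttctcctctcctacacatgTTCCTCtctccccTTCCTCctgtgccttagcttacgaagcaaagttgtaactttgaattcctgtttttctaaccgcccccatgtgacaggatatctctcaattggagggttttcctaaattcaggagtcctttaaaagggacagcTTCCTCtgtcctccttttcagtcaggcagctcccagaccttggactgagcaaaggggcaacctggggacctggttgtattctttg
Promoters were read for 7 of the 10 genes (not C1qa, Csf1r and Adgre1). A gene left out here may still have a promoter in RefSeq. Of the 7, 4 had the motif on either strand, C1qb and C1qc once, Mrc1 3 times and Aif1 once. Of the 32851 RefSeq promoters read, 28.3% had it. A match is a description of letters and not of a binding site.

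Values are log2 summaries per probe set (RMA), used as deposited. The ranked values were almost equal within the 4 sorted-cell arrays and within the 4 gonad arrays, but the array medians averaged 5.58 in sorted cells and 5.97 in gonads, so the 2 sets appear to have been normalized apart. Differences between a sorted group and its organ are therefore given after subtracting each array's median. The file gives no detection calls. As a guide to background, 9 probe sets for Kdm5d, Uty and Eif2s3y, which lie on the Y chromosome, read from 3.11 to 4.78 in XX arrays, with a median of 3.59. The marker lists followed the labels: 10 Sertoli genes averaged 11.04 and 11.21 in Sertoli arrays against 6.53 and 7.58 in pre-granulosa arrays, and 8 pre-granulosa genes averaged 5.89 and 5.72 in Sertoli arrays against 10.34 and 9.88 in pre-granulosa arrays. These lists were chosen with earlier results of these data known, so this is not an independent check of the sort. For actin the 3′ probe set exceeded the 5′ one by 3.08 log2 units in pre-granulosa replicate 1, a sign of shorter RNA. The other 7 arrays had 1.57 to 2.51, the highest being Sertoli replicate 2. For Gapdh the gap was 3.68 in pre-granulosa replicate 1, 2.69 in Sertoli replicate 2, 1.94 in Sertoli replicate 1 and at most 1.55 elsewhere. The part of RNA length in the macrophage gene values was not tested. Sertoli replicate 2 stood apart from Sertoli replicate 1 in macrophage genes and in genes of Leydig cells, as described below.

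The comparison of the sorted cell types asks how XY and XX supporting-cell samples differ. C1qb was higher in Sertoli samples, by 4.49 ± 0.45 log2 units or 22.4-fold (SE, n = 2 against 2, limma adjusted p = 0.00504). It was the 1 gene of the 10 that passed the test, where 2.67% of all genes passed in either direction and 1.62% were higher in Sertoli samples. For 6 of the 10 genes (Csf1r, C1qa, C1qb, C1qc, Mrc1 and Lyz2) both Sertoli arrays were above both pre-granulosa arrays, as were 24.2% of all genes. Of the 10 differences 9 were above 0, with a median of 1.18, where 55.0% of all genes lay above 0 with a median of 0.04. The 2 Sertoli arrays differed widely from each other in several of these genes, and no member but C1qb passed.

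**Figure D1:**
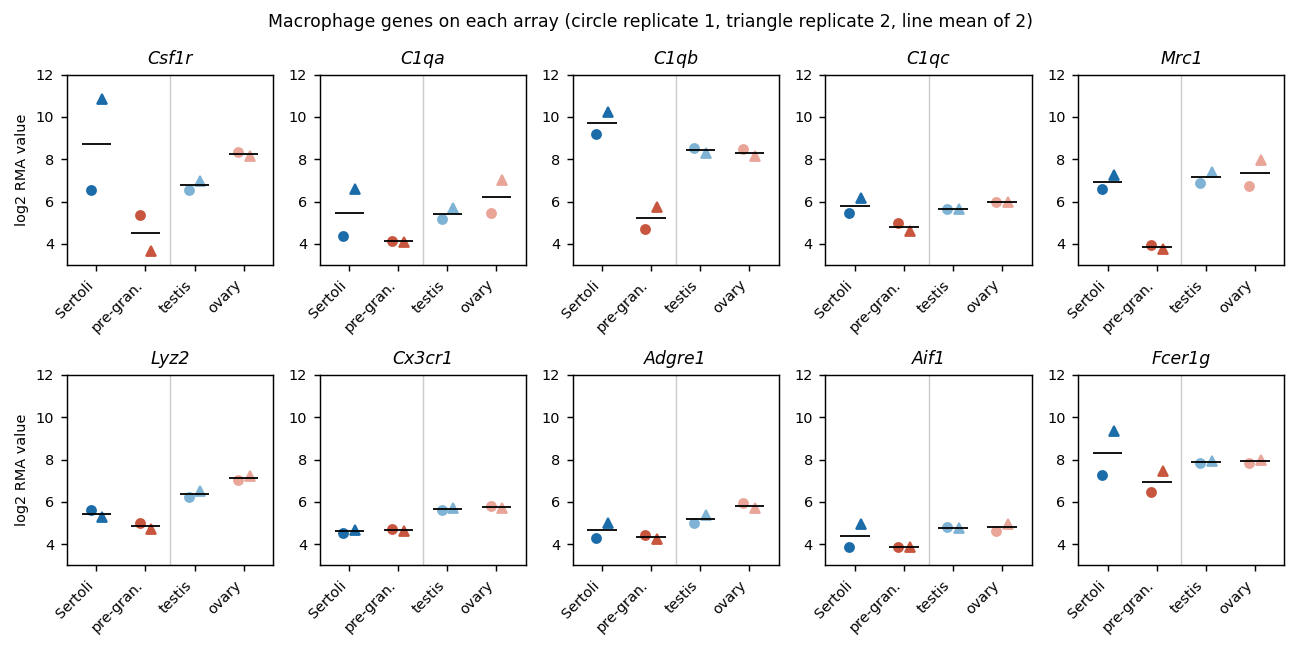
Log2 RMA value of the chosen probe set of each gene on the 8 arrays, with circles for replicate 1, triangles for replicate 2 and a line at the mean of the 2. C1qb and Mrc1 stood above both pre-granulosa arrays in both Sertoli arrays, and Csf1r read 6.54 and 10.86 in the 2 Sertoli arrays. The grey vertical line parts sorted cells from whole organs, whose arrays appear to have been normalized apart.

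Csf1r encodes the receptor that macrophages need to survive. It read 6.54 and 10.86 in Sertoli replicates 1 and 2, against 5.38 and 3.65 in pre-granulosa replicates 1 and 2. Both Sertoli arrays were above both pre-granulosa arrays, but the 2 Sertoli arrays lay further apart than replicate 1 lay from the XX arrays. The difference of 4.19 ± 1.33 was not called (adjusted p = 0.155). It was 6.35 without Sertoli replicate 1 (adjusted p = 0.0155) and 2.03 without Sertoli replicate 2 (adjusted p = 0.242). The other 2 probe sets of the gene differed by 1.30 and 0.55 (adjusted p = 0.301 and 0.249). On them Sertoli replicate 2 was again the highest sorted array, at 7.94 and 6.58, where Sertoli replicate 1 read 6.07 and 5.98 and the pre-granulosa arrays read at most 6.02 and 5.80.

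The C1q chains did not all behave alike on their probe sets. C1qb read 9.21 and 10.21 in Sertoli samples, against 4.69 and 5.75 in pre-granulosa samples, with a wide gap between the groups. Another C1qb probe set also passed, at 4.45 ± 0.41 (adjusted p = 0.00412), where 1.81% of all probe sets did. The last C1qb probe set, at 4.56 and 6.23 in Sertoli samples against 4.13 and 3.73 in pre-granulosa samples, did not (1.46 ± 0.51, adjusted p = 0.191). That probe set lay near the level of Y-linked genes in XX arrays on 3 of the 4 sorted arrays. C1qa read 4.37 and 6.58 in Sertoli samples, against 4.13 and 4.11 in pre-granulosa samples, and was not called (1.35 ± 0.79, adjusted p = 0.443). Only Sertoli replicate 2 was clear of the background guide for C1qa. C1qc read 5.45 and 6.16 in Sertoli samples, against 4.98 and 4.62 in pre-granulosa samples (1.01 ± 0.26, adjusted p = 0.0893), again with no overlap. The 3 genes lie next to each other on mouse chromosome 4.

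Mrc1, the mannose receptor, read 6.62 and 7.27 in Sertoli samples, against 3.94 and 3.75 in pre-granulosa samples. Its groups were far apart and its Sertoli replicates close, and the difference of 3.10 ± 0.44 missed the threshold of 0.01 (adjusted p = 0.0148). Fcer1g, the Fc receptor chain, read 7.29 and 9.34 in Sertoli samples, against 6.48 and 7.45 in pre-granulosa samples (1.35 ± 0.66, adjusted p = 0.348). Sertoli replicate 1 lay between the 2 pre-granulosa arrays for this gene. Lyz2, the lysozyme gene, read 5.61 and 5.29 in Sertoli samples, against 4.99 and 4.73 in pre-granulosa samples (0.59 ± 0.19, adjusted p = 0.163). It was the 1 member whose value was lower in Sertoli replicate 2 than in replicate 1.

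Adgre1, Aif1 and Cx3cr1 read near the background guide in sorted cells. Adgre1 read 4.30 and 5.0 in Sertoli samples, against 4.43 and 4.27 in pre-granulosa samples (0.30 ± 0.27, adjusted p = 0.646). Aif1 read 3.85 and 4.95 in Sertoli samples, against 3.88 and 3.85 in pre-granulosa samples (0.54 ± 0.35, adjusted p = 0.496). For both genes Sertoli replicate 1 was within the range of, or below, the pre-granulosa arrays, and without Sertoli replicate 2 the differences were -0.05 and -0.01. Cx3cr1 read 4.55 and 4.67 in Sertoli samples, against 4.71 and 4.62 in pre-granulosa samples (-0.06 ± 0.14, adjusted p = 0.898). Its second probe set, with the lower mean, read 4.20 and 5.63 in Sertoli samples, against 4.32 and 4.17 in pre-granulosa samples, and had a difference of the opposite sign (0.67 ± 0.43, adjusted p = 0.490). There, too, Sertoli replicate 2 was the highest of the sorted arrays.

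The gap between replicates was itself measured. In Sertoli replicate 2 the value was higher than in replicate 1 for 9 of the 10 genes, with a median gap of 0.85, and by over 1 log2 unit (2-fold) for 4 of them, Csf1r (4.32), C1qa (2.20), Fcer1g (2.05) and Aif1 (1.09). Of all genes 4.57% had a gap over 1 in that direction, and the median gap was 0.05. In pre-granulosa cells 1 of the 10 genes had such a gap (C1qb, 1.06), where 8.5% of all genes did, in testes 0 of 10, where 0.319% did, and in ovaries 2 of 10 (C1qa, 1.57, and Mrc1, 1.22), where 1.19% did. Other lists had such gaps too: of 5 Leydig cell genes 3 had a gap over 1 in Sertoli cells, with a median of 1.35, and of the 39 other myeloid genes described below 8 did, with a median of 0.21 and 26 above 0. In pre-granulosa cells 6 of 10 Sertoli genes had such a gap, with a median of 1.16, and 4 of 12 endothelial genes, with a median of 0.18. Pooled over the 10 genes as a root mean square, the replicate SD was 1.25 in Sertoli cells, 0.51 in pre-granulosa cells, 0.22 in testes and 0.46 in ovaries, beside 0.43, 0.53, 0.20 and 0.30 over all probe sets. Without Sertoli replicate 2 the median difference of the 10 genes between Sertoli and pre-granulosa samples was 0.49, and without Sertoli replicate 1 it was 1.87.

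**Figure D2:**
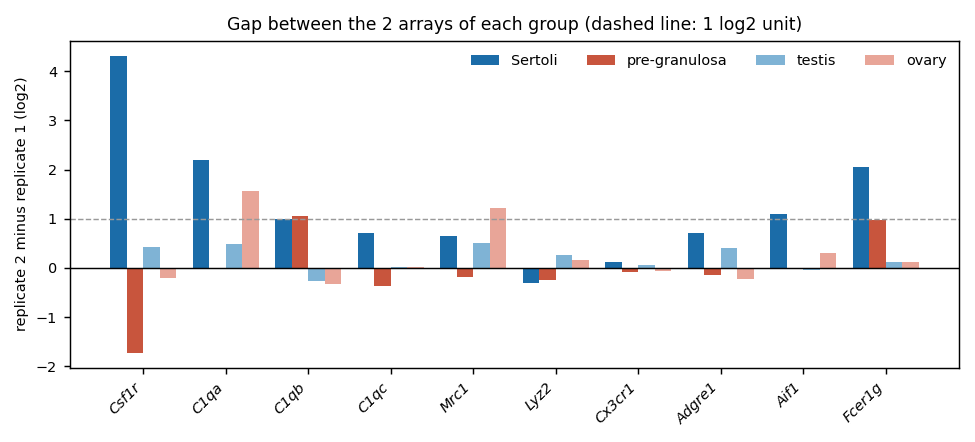
Replicate 2 minus replicate 1 (log2) for each gene in each group, as bars from 0, with a dashed line at 1 log2 unit. The Sertoli bars of Csf1r, C1qa, Fcer1g and Aif1 reach 4.32, 2.20, 2.05 and 1.09, while 0 testis bars pass the line.

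The call of C1qb rested on the spread pooled over the 4 groups. It was lost without any one of the Sertoli, testis or ovary arrays (adjusted p from 0.0113 to 0.0236, differences from 3.99 to 4.98) and in a fit of the sorted arrays alone (adjusted p = 0.108), and kept without either pre-granulosa array (3.96 and 5.02). The omissions that lost it also left fewer calls over all genes, from 0.352% to 1.03%, and the fit of the sorted arrays alone called 0% of all genes.

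Between whole organs the same question gave no called macrophage gene. For testis minus ovary limma called 0 of the 10 genes, where 0.352% of all genes passed, and 1 of the 10, Lyz2, had an unadjusted p under 0.05, where 11.5% of all genes did. The median difference was -0.26, beside -0.04 over all genes, and 9 of 10 differences were below 0. In 5 of the 10 genes both testis arrays were below both ovary arrays, as in 30.7% of all genes, and in 0 of 10 were both above.

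Lyz2 read 6.24 and 6.51 in testes, against 7.05 and 7.21 in ovaries (-0.75 ± 0.19, adjusted p = 0.236). Csf1r read 6.56 and 6.97 in testes, against 8.35 and 8.15 in ovaries (-1.48 ± 1.33, adjusted p = 0.889). The groups of both genes were apart, and the error of the Csf1r difference carries the wide gap between the Sertoli arrays, because the spread is pooled. In a limma fit of testis and ovary arrays alone Csf1r had -1.48 ± 0.19 (adjusted p = 0.0479) and Lyz2 -0.75 ± 0.15 (adjusted p = 0.0982). Neither was called there, where 0.291% of all genes were. The other Csf1r probe sets read 6.59 and 6.55 in testes against 7.43 and 7.49 in ovaries, and 6.34 and 6.31 against 6.53 and 6.70. Both had no overlap either and were not called (-0.89 and -0.29, adjusted p = 0.781 and 0.838). Adgre1 read 5.0 and 5.40 in testes, against 5.93 and 5.70 in ovaries (-0.61 ± 0.27, adjusted p = 0.595), C1qc 5.65 and 5.67 against 5.97 and 5.99 (-0.32 ± 0.26, adjusted p = 0.855), and Cx3cr1 5.64 and 5.71 against 5.79 and 5.74 (-0.09 ± 0.14, adjusted p = 0.968).

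The remaining genes overlapped between testes and ovaries. C1qb read 8.55 and 8.29 in testes, against 8.48 and 8.15 in ovaries (0.10 ± 0.45). Mrc1 read 6.89 and 7.39 in testes, against 6.73 and 7.95 in ovaries (-0.20 ± 0.44), and C1qa 5.19 and 5.68 against 5.44 and 7.01 (-0.79 ± 0.79). For both Mrc1 and C1qa the highest of the 4 organ arrays was ovary replicate 2. Fcer1g read 7.82 and 7.94 in testes, against 7.85 and 7.97 in ovaries (-0.04 ± 0.66), and Aif1 4.80 and 4.75 against 4.64 and 4.95 (-0.02 ± 0.35).

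The difference between the sorted groups was then tested against the difference between the organs. All 10 values were above 0, from 0.03 (Cx3cr1) to 5.67 (Csf1r), with a median of 1.37 beside 0.08 over all genes. Limma called 0 of the 10, and 0% of all genes, and 5 of the 10 had an unadjusted p under 0.05, where 13% of all genes did. C1qb had 4.38 ± 0.63 (adjusted p = 0.0652), Mrc1 3.31 ± 0.62 (0.116) and Lyz2 1.34 ± 0.27 (0.136). So C1qb passed between the sorted samples and not between the organs, and the difference between these results did not pass.

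Each sorted group was then set beside the organ of its sex, which asks how sorted cells differ from the organ they came from. In pre-granulosa samples all 10 macrophage genes had values below those of ovaries after subtracting the array medians, with no overlap between the groups, and 32.8% of all genes did so. Mrc1 was lower by 3.12 ± 0.44 log2 units (adjusted p = 0.00775) and Lyz2 by 1.89 ± 0.19 (adjusted p = 0.00346). These 2 of the 10 passed, where 5.4% of all genes passed in either direction and 4.11% were lower. The median difference was -1.40, beside -0.01 over all genes.

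On the deposited scale Mrc1 read 3.94 and 3.75 in pre-granulosa samples, against 6.73 and 7.95 in ovaries, and Lyz2 4.99 and 4.73 against 7.05 and 7.21. C1qb, at 4.69 and 5.75 in pre-granulosa samples against 8.48 and 8.15 in ovaries, missed the threshold (-2.71 ± 0.45 after centring, adjusted p = 0.0126). Cx3cr1 (-0.72 ± 0.14, adjusted p = 0.0176) and Adgre1 (-1.08 ± 0.28, adjusted p = 0.0399) missed it as well. The second Cx3cr1 probe set differed by 0.10 ± 0.43. Csf1r read 5.38 and 3.65 in pre-granulosa samples, against 8.35 and 8.15 in ovaries (-3.35 ± 1.33, adjusted p = 0.118). The differences of C1qa (-1.72 ± 0.79), C1qc (-0.80 ± 0.26), Fcer1g (-0.57 ± 0.66) and Aif1 (-0.55 ± 0.35) were not called either. The Mrc1 call was lost without any one of the 8 arrays (adjusted p from 0.0128 to 0.0343), and with a weight per group (0.0239). The Lyz2 call was lost without an ovary or a testis array (0.0137 to 0.0304), omissions that left between 0% and 0.704% of all genes called. In a fit of pre-granulosa and ovary arrays alone both were lost (0.0468 for Mrc1 and 0.0320 for Lyz2), and 0% of all genes were called. Without pre-granulosa replicate 2 C1qb was called beside Lyz2, where 9.98% of all genes were.

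In Sertoli samples 0 of the 10 genes were called against testes by limma, where 6.87% of all genes passed in either direction and 3 of the 10 had an unadjusted p under 0.05, where 41.5% of all genes did. The differences after centring ran from -0.67 to 2.34 with a median of 0.32, beside 0.10 over all genes, and 7 of 10 were above 0. The median and this count depend on the centring. On the deposited scale every difference was lower, with C1qa at 0.04, Mrc1 at -0.19 and Aif1 at -0.37. After centring the median was -0.29 without Sertoli replicate 2 and 0.74 without Sertoli replicate 1. C1qb differed by 1.69 ± 0.45 (adjusted p = 0.0414), with both Sertoli arrays (9.21 and 10.21) above both testis arrays (8.55 and 8.29). Another C1qb probe set differed by 2.12 ± 0.42 (adjusted p = 0.0180), and the last by 0.79 ± 0.51 (adjusted p = 0.280).

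Mrc1 read 6.62 and 7.27 in Sertoli samples, against 6.89 and 7.39 in testes, and differed by 0.20 ± 0.44 after centring (adjusted p = 0.747) and by -0.19 on the deposited scale. Csf1r differed by 2.34 ± 1.33, with Sertoli replicates 1 and 2 at 0.97 and 5.30 above their array medians, against 0.58 and 1.01 in testes, so replicate 1 lay between the testis arrays. Cx3cr1 (-0.67 ± 0.14, adjusted p = 0.0196) and Lyz2 (-0.53 ± 0.19, adjusted p = 0.0845) were the 2 genes with both Sertoli arrays below both testis arrays after centring, as were 32.5% of all genes. On the deposited scale that Cx3cr1 probe set passed, at -1.07 (adjusted p = 0.00425), but the other Cx3cr1 probe set had the opposite sign after centring (0.76 ± 0.43, adjusted p = 0.227). Of the other genes, C1qc differed by 0.55 ± 0.26, Fcer1g by 0.83 ± 0.66, C1qa by 0.44 ± 0.79, Aif1 by 0.02 ± 0.35 and Adgre1 by -0.15 ± 0.28. The sign of Aif1 turned with quantile normalization over all arrays (-0.16) and on the deposited scale (-0.37).

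**Figure D3:**
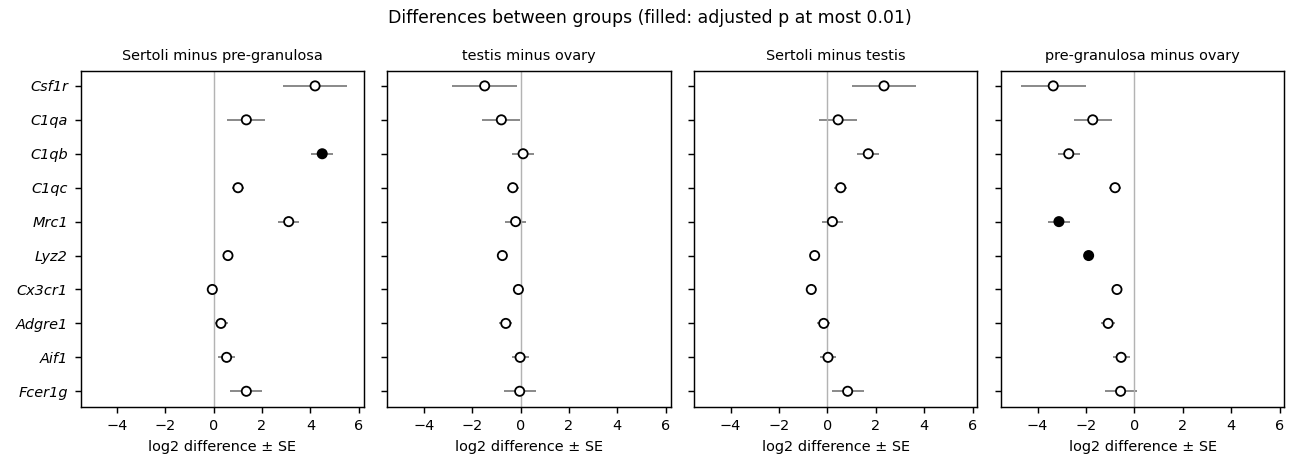
Log2 difference ± SE of each gene in 4 comparisons, with filled points for an adjusted p of at most 0.01. C1qb is filled for Sertoli minus pre-granulosa, Mrc1 and Lyz2 are filled for pre-granulosa minus ovary, and 0 points are filled for testis minus ovary and Sertoli minus testis. The 2 right panels use values less each array's median.

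The order of the 4 groups by mean level after centring was therefore shared only in part. Pre-granulosa samples were lowest for 9 of the 10 genes, the exception being Cx3cr1, for which Sertoli (-0.96 relative to the array median) and pre-granulosa samples (-0.94) did not differ beyond their spread. Sertoli samples were highest for 6 genes (Csf1r, C1qb, C1qc, Mrc1, Aif1 and Fcer1g) and ovaries for 4 (C1qa, Lyz2, Cx3cr1 and Adgre1). On the deposited scale Sertoli samples were highest for 3 (Csf1r, C1qb and Fcer1g) and ovaries for 7, so the place of C1qc, Mrc1 and Aif1 turns with the centring. For Mrc1 the means of Sertoli samples, ovaries and testes, at 1.38, 1.36 and 1.17, lay within the spread of the ovary arrays. With Sertoli replicate 1 alone, Sertoli cells were highest for 1 of the 6 genes, C1qb.

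Other cells of the gonad were read in the same comparisons. In Sertoli samples 8 of 9 germ cell genes were called lower than in testes, where 6.87% of all genes were called in either direction. Among them were Dazl, a germ cell RNA-binding protein, by 6.74 ± 0.21, and Ddx4, a germ cell helicase, by 6.21 ± 0.42. The same 8 of 9 were called lower in pre-granulosa samples than in ovaries, where 5.4% of all genes were called. In both comparisons 0 of the 9 differences were above 0. Of 9 erythroid genes 3 were called lower in Sertoli samples than in testes, such as the embryonic globin Hba-x (-5.05 ± 0.28). In pre-granulosa samples 2 were called lower than in ovaries. Of the 9 differences 4 and 3 were above 0 in these 2 comparisons, with medians of -0.48 and -1.94. Of 12 endothelial genes 1 was called lower in Sertoli samples than in testes (Kdr, a VEGF receptor, -1.17 ± 0.13). Of the 12 differences in that comparison 1 was above 0, and the median was -1.02. There 7 had an unadjusted p under 0.05 in limma, where 41.5% of all genes did. In pre-granulosa samples 4 were called lower than in ovaries (Robo4, Kdr, Cldn5 and Eng). There 0 of the 12 differences were above 0, and the median was -1.85. Robo4, an endothelial guidance receptor, was the 1 endothelial gene called between the sorted groups, higher in Sertoli samples by 2.87 ± 0.34 (adjusted p = 0.00842), at 6.78 and 7.53 against 4.36 and 4.22. All 12 endothelial differences between Sertoli and pre-granulosa samples were above 0, with a median of 0.56.

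Genes of fetal Leydig cells, the steroid-producing cells of the testis, also had values above 0 in all 5 measured genes for Sertoli minus pre-granulosa, with a median of 1.29. None was called by limma, and 5 of 5 had an unadjusted p under 0.05, where 22.4% of all genes did. Cyp17a1, a steroid hydroxylase, read 8.69 and 10.03 in Sertoli samples, against 6.32 and 5.58 in pre-granulosa samples (3.41 ± 0.47, adjusted p = 0.0136). Between testes and ovaries 3 of the 5 were called higher in testes, among them Cyp17a1 (6.07 ± 0.47), where 0.352% of all genes were called. In Sertoli samples 1 of the 5, Hsd3b1, was called lower than in testes (-1.57 ± 0.21). Of the 5 differences between Sertoli samples and testes 1 was above 0, and the median was -1.94. All 5 had an unadjusted p under 0.05 in limma, where 41.5% of all genes did. Of 7 interstitial genes 3 were called lower in Sertoli samples than in testes and 3 in pre-granulosa samples than in ovaries. In each of these comparisons 1 of the 7 differences was above 0, and the medians were -2.13 and -2.86. Between the sorted groups 0 of the 7 were called by limma, 3 had an unadjusted p under 0.05, and the median was 0.98. The part of other cell types in the macrophage gene differences was not tested.

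**Figure D4:**
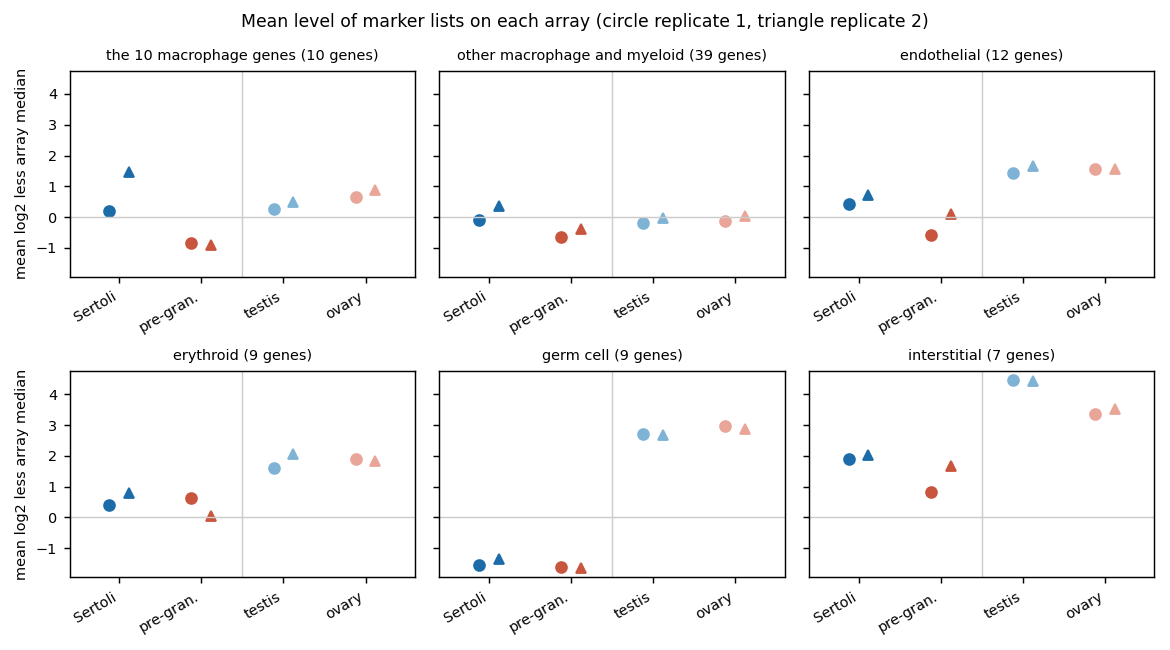
Mean log2 level of 6 marker lists on each array, less the array's median, with circles for replicate 1 and triangles for replicate 2. The 10 macrophage genes average 0.21 and 1.47 in Sertoli arrays, -0.85 and -0.91 in pre-granulosa arrays, 0.26 and 0.47 in testes and 0.65 and 0.89 in ovaries, while the 9 germ cell genes stay at or below -1.34 in the 4 sorted arrays and at or above 2.66 in the 4 gonad arrays.

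A wider list of 40 macrophage and myeloid genes, 39 of them measured, was read beside the 10. Between Sertoli and pre-granulosa samples limma called 0 of the 39, 6 had an unadjusted p under 0.05, a share of 15.4% beside 22.4% of all genes, and the median difference was 0.38, with 33 of 39 above 0. Tyrobp, a signalling adaptor of myeloid receptors, read 6.33 and 8.20 in Sertoli samples, against 5.84 and 5.15 in pre-granulosa samples (1.77 ± 0.60, adjusted p = 0.176). Laptm5, a lysosomal protein of blood cells, read 8.21 and 10.17 in Sertoli samples, against 6.66 and 7.21 in pre-granulosa samples (2.25 ± 0.65, adjusted p = 0.123). In both genes Sertoli replicate 2 was the higher Sertoli array, as in 26 of the 39. Cd68, a lysosomal glycoprotein, read 5.63 and 6.94 in Sertoli samples, against 5.54 and 5.14 in pre-granulosa samples (0.94 ± 0.42), and Fcgr3, an Fc receptor, 6.68 and 7.40 against 6.69 and 6.16 (0.61 ± 0.29). Ptprc, the pan-leukocyte antigen CD45, and Spi1, which encodes PU.1, had differences of -0.05 ± 0.22 and 0.14 ± 0.23. Their probe sets ranged over the 8 arrays only from 4.56 to 5.41 and from 5.36 to 6.03.

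Of the same 39 genes, 3 were called lower in pre-granulosa samples than in ovaries and 0 higher, where 5.4% of all genes were called. But 18 of the 39 differences were above 0 after centring and the median was -0.10, beside -1.40 for the 10 macrophage genes. On the deposited scale the 39 genes averaged 4.96 and 5.19 in pre-granulosa samples, against 5.83 and 6.02 in ovaries. The 3 called were Cd53, a leukocyte tetraspanin (-3.38 ± 0.39), Alox5ap, which serves leukotriene synthesis (-2.42 ± 0.35), and Cybb, the phagocyte NADPH oxidase subunit (-1.58 ± 0.16). Against testes, 1 was called lower in Sertoli samples, Cybb again (-1.11 ± 0.16), where 6.87% of all genes were called. Called higher were 2, Csf2ra, a GM-CSF receptor chain (2.54 ± 0.26), and Cyth4 (1.00 ± 0.15). Of these 39 differences 30 were above 0 after centring, with a median of 0.39. That depends on the centring. On the deposited scale the 39 genes averaged 5.47 and 5.92 in Sertoli samples, against 5.78 and 5.92 in testes. Cybb read 4.15 and 3.99 in Sertoli samples and 4.18 and 4.09 in pre-granulosa samples, near the background guide, against 5.45 and 5.71 in testes and 6.04 and 6.16 in ovaries. Between testes and ovaries limma called 0 of the 39, and 1 had an unadjusted p under 0.05.

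The ligands of the receptors among the 10 genes were measured too. Csf1, a ligand of CSF1R, read 6.59 and 6.57 in Sertoli samples against 6.60 and 6.37 in pre-granulosa samples, and 6.87 and 6.86 in testes against 6.77 and 6.78 in ovaries. Its differences were 0.10 ± 0.14 between the sorted groups and 0.09 ± 0.14 between the organs, neither called. Il34, the other ligand, lay between 3.80 and 4.21 on the 8 arrays, within the range of the background guide. Cx3cl1, the ligand of CX3CR1, differed by 0.67 ± 0.17 between Sertoli and pre-granulosa samples (adjusted p = 0.0917) and by 0.64 ± 0.17 between testes and ovaries (adjusted p = 0.277). Of the 7 ligand and chemokine genes 1 was called in any comparison, Cxcl12, lower in Sertoli samples than in testes (-3.15 ± 0.28) and in pre-granulosa samples than in ovaries (-2.02 ± 0.28).

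Partners of C1q in complement gave 1 called gene of 8 measured. Serping1, the inhibitor of the C1 proteases, was lower in Sertoli than in pre-granulosa samples, by 2.79 ± 0.32 (adjusted p = 0.00726), at 6.81 and 6.24 against 9.73 and 8.89. The C1 protease genes C1ra and C1s1 had differences of -0.75 ± 0.28 and -1.65 ± 0.54 in the same comparison, neither called. But 4 of the 8 differences were above 0. The largest was 1.86, for C5ar1, at 6.69 and 7.53 in Sertoli samples against 5.01 and 5.48 in pre-granulosa samples, and not called. Of the 8 genes 6 had an unadjusted p under 0.05 in limma, where 22.4% of all genes did. C1qb thus had the opposite direction to Serping1 between the sorted groups, and both passed.

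The likeness of the 10 genes to each other was described by Pearson's r of each with the mean of the other 9 over the 8 arrays, after centring. It was highest for C1qc (0.94), Mrc1 (0.89), Csf1r (0.88) and Aif1 (0.87), and lowest for Lyz2 (0.55) and Cx3cr1 (0.37). Arrays of 1 group share their source, and the 2 sets appear to have been normalized apart, so no p is given. Of all other genes, those most like the mean of the 10 were Espl1 (0.99), Cog2 (0.98), Lrp2 (0.98), Ctss (0.98) and Tyrobp (0.97). Lrp2 lay between 3.35 and 4.78 on the 8 arrays, within the range of the background guide. Ctss, the lysosomal protease cathepsin S, read 7.57 and 9.32 in Sertoli samples, 4.66 and 5.04 in pre-granulosa samples, 7.90 and 8.02 in testes and 8.12 and 8.31 in ovaries. Ctss and Tyrobp also stand in the wider myeloid list, and the other 3 genes in none of the lists.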

How the data were processed

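Transcripts were measured on 8 Affymetrix arrays, 2 per group, from about 20 ng of total RNA per sample, per the labels. The authors deposited log2 values per probe set, made by RMA per the submitters' processing notes (version not given in the sources used here), and used R/maanova with calls at 1% false discovery, per the series text. Of 45037 probe sets that are not controls, 34945 had a single symbol, and the one of highest mean stood for its gene. Symbols were compared with a RefSeq table of GRCm38.p6 through the gene identifier.

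The test was limma 3.58.1 in R 4.3.3, with the 8 arrays in 1 fit and 1 mean per group, moderated two-sided p-values adjusted by Benjamini-Hochberg over 45037 probe sets, and calls at 0.01. Adjusted p in the text come from this test and standard errors from its model. Comparisons of sorted cells with organs used values less each array's median. The fit was tested on simulated data. The number of arrays limits the precision. Genes were named by rule: all 10 members, up to 4 called and the first 2 not called genes of each list, 9 fixed myeloid genes and ligands, and the 5 most alike genes. The members and lists were chosen with earlier results of these data known. C1ra, C1s1, C5ar1 and the genes of the closing observations were named after their values were seen. Alternatives were other normalizations and centring, a filter on dim probe sets, other variance models, another threshold, other probe sets, a replicate block and omission of each array.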

Additional observations from a re-analysis of the deposited data

How the results depend on the processing

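The count of the 10 genes called for Sertoli minus pre-granulosa, 1 as reported, was 2 with dim probe sets left out and at an adjusted p of 0.05 (4.58% and 7.38% of all genes called), and 0 with a weight per group, with the 2 groups alone and with the replicate number as a block (0.956%, 0% and 1.15%). For pre-granulosa minus ovary, 2 as reported, it was 4 with the deposited values in place of centred ones, 5 at an adjusted p of 0.05, 1 with a weight per group, 0 with the 2 groups alone and 1 with the replicate block (9.62%, 21.4%, 2.65%, 0% and 2.24% of all genes, in that order). For Sertoli minus testis, 0 as reported, it was 1 with the deposited values and 2 at an adjusted p of 0.05 (9.7% and 25.6% of all genes). Over omissions of 1 array these counts ran from 0 to 1, from 0 to 2 and from 0 to 0, and for testis minus ovary and the difference of the 2 comparisons they were 0 throughout. The replicate numbers are shared labels only: deviations of same-numbered samples correlated at 0.0094 for the sorted groups and 0.015 for the organs, and pairing by number called 0 genes where the unpaired fit called C1qb and 1 where it called 2, and changed no other count.

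Signs turned for differences that were not called. For Sertoli minus pre-granulosa, Cx3cr1 was 0.67 on its other probe set, and over omissions of 1 array Cx3cr1 ran from -0.11 to 0.00068, Adgre1 from -0.048 to 0.65 and Aif1 from -0.012 to 1.08. For testis minus ovary, Aif1 was 0.0038 and 0.0049 after quantile normalization over all arrays and within each set, C1qb was -0.14 on another probe set, and the omissions gave -0.061 to 0.27 for C1qb, -0.81 to 0.41 for Mrc1, -0.17 to 0.14 for Aif1 and -0.10 to 0.024 for Fcer1g. For Sertoli minus testis, Aif1 was -0.16 after quantile normalization over all arrays, and on the deposited scale Mrc1 was -0.19 and Aif1 -0.37. The omissions gave -0.51 to 0.20 for Adgre1, -0.66 to 1.55 for C1qa, -0.13 to 0.54 for Mrc1, -0.53 to 0.57 for Aif1 and -0.20 to 1.86 for Fcer1g. In the difference of the 2 comparisons Cx3cr1 ran from -0.023 to 0.090. The cause of these changes was not tested. For pre-granulosa minus ovary no sign of a chosen probe set turned under the alternatives run, but the other Cx3cr1 probe set had 0.10, and for Sertoli minus testis it had 0.76. A fit of the 2 groups alone could not be made for the difference of the 2 comparisons. With dim probe sets left out, 5 of the 10 genes remained measured.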

Other observations

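Genes of 2 other blood cell types were named after their values were seen. Ppbp, a platelet chemokine of megakaryocytes, read 9.34 and 9.89 in Sertoli samples and 6.90 and 8.57 in pre-granulosa samples, against 6.67 and 6.82 in testes and 5.58 and 6.51 in ovaries. After centring it differed by 3.27 ± 0.58 between Sertoli samples and testes (adjusted p = 0.0135, limma) and by 2.07 ± 0.58 between pre-granulosa samples and ovaries (adjusted p = 0.0507). Gp1bb, a platelet adhesion receptor chain, was higher in Sertoli samples than in testes (1.86 ± 0.25, adjusted p = 0.00642), at 6.33 and 6.74 against 4.99 and 5.17. Pf4, which both megakaryocytes and some macrophages express, read 8.71 and 9.68 in Sertoli samples and 5.96 and 8.08 in pre-granulosa samples, against 7.76 and 7.89 in testes and 6.72 and 7.60 in ovaries. Of the 10 mast cell and megakaryocyte genes measured, 1 was called higher in Sertoli samples than in testes and 0 lower, where 6.87% of all genes were called. Between pre-granulosa samples and ovaries 0 were called higher and 2 lower, where 5.4% of all genes were called. In each comparison 7 of the 10 differences were above 0 after centring. On the deposited scale the 10 genes averaged 6.19 and 6.23 in Sertoli samples, against 5.89 and 5.98 in testes. They averaged 5.69 and 5.86 in pre-granulosa samples, against 5.98 and 6.18 in ovaries. Gata2 went the other way, at 7.59 and 7.43 in Sertoli samples and 7.39 and 7.64 in pre-granulosa samples, against 8.82 and 9.53 in testes and 11.31 and 11.14 in ovaries.

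S100a8 and S100a9, calcium-binding proteins abundant in neutrophils, read 6.05 and 7.33, and 6.45 and 7.65, in testes, against 10.13 and 9.36, and 10.44 and 10.38, in ovaries. Neither was called between the organs (-3.05 ± 0.72 and -3.36 ± 0.78, adjusted p = 0.198 and 0.194, limma), and 0 of 10 neutrophil and monocyte precursor genes were, while 5 had an unadjusted p under 0.05, where 11.5% of all genes did, and all 10 had values below 0. S100a8 and S100a9 had their highest group mean in ovaries, as had C1qa, Lyz2, Cx3cr1 and Adgre1 of the 10 macrophage genes after centring. In the sorted samples S100a8 read 6.64 and 5.0 in Sertoli samples and 5.51 and 4.37 in pre-granulosa samples, lower in replicate 2 of each group, where Csf1r was higher in Sertoli replicate 2.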
